A study of Mus musculus with 6 samples.

Results

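The genes described here are the members of the serpin family on the array apart from Serpina3n, taken as every gene whose platform symbol begins with Serpin. There were 55 such genes with 80 probes, and 24 of the 55 were tested, having a probe above background (detection p under 0.05) on 3 or more of the 6 arrays. The samples were livers of newborn mice of a mixed 129/ c57Bl/6 background, with 3 wild-type (WT) arrays and 3 arrays labelled Igf2 KO, hybridised to Illumina expression arrays. The labels give no allele for the Igf2 knockout, and leave unsaid how many pups went into an array and which were littermates. The p-values therefore rest on the variation among these arrays, some of which may be technical. The comparison asks which serpin transcripts of the liver at birth differ in mice labelled as knockouts of Igf2, which encodes a growth factor that promotes growth before birth.

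Serpins are a family of proteins that share a fold with an exposed reactive centre loop. An inhibitory serpin offers this loop as bait, the protease cuts it, and the serpin snaps into a more stable form that holds the protease bound and inactive. The liver secretes many clade A serpins into plasma, among them alpha-1 antitrypsin, together with the clotting regulators antithrombin, heparin cofactor II and alpha-2 antiplasmin. Other serpins carry hormones, guide collagen folding, or, in clade B, act mostly inside cells. Mice have several copies of genes that are single in humans, such as the alpha-1 antitrypsin paralogs Serpina1a to Serpina1e.

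In the knockout, 4 serpin genes fell and 2 rose among the 24 tested, while 18 did not pass the test. Those that fell were Serpina4-ps1, Serpina5, Serpind1 and Serpina1c, and those that rose were Serpina3f and Serpinb6b. The 6 calls are 25.0% of the tested members, where 16.7% of all 11346 genes tested were called by limma at an adjusted p under 0.05 (8.23% higher and 8.49% lower). The median log2 fold change, knockout minus WT, was -0.23 over the 24 members and 0.022 over all genes, and 17 of the 24 values were negative. The values of the 2 groups did not overlap for 14 of the 24 genes (58.3%), against 39.1% of all genes. Every test was limma's on log2 intensity with Benjamini-Hochberg adjustment over all genes, and errors of fold changes are its moderated standard errors (SE). Intensities printed by array are the deposited ones, already normalised between arrays, in the order of arrays 1, 2 and 3, whereas fold changes come from the log2 values after a further background step that shrinks those of dim genes.

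**Figure D1:**
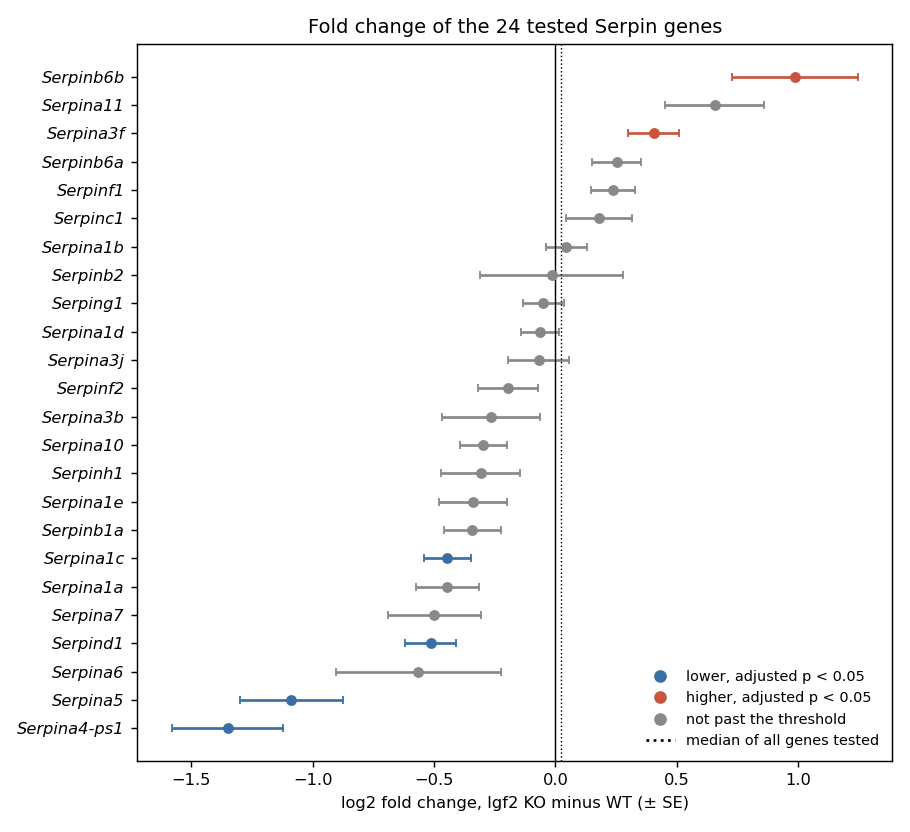
Log2 fold change (knockout minus WT, x axis) of the 24 tested serpin genes, with bars of ± 1 SE (3 arrays in each group). Blue and red points are the 4 genes that fell and the 2 that rose at an adjusted p under 0.05, grey points did not pass, and the dotted line is the median of all genes at 0.022.

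Each array had 46.3% to 49.9% of its 45281 probes above background. The 9 hepatocyte markers were all detected on every array, with a summed intensity of 129750 to 131399 in WT and 127824 to 131195 in the knockout. Of these 9, 1 was called higher and 1 lower in the knockout, so the sum does not show that each was unchanged. Igf2 itself had 19805, 19195 and 18656 in WT and 9337, 11866 and 9676 in the knockout, so that every array labelled knockout was below every WT array (-0.91 ± 0.11, adjusted p = 0.0022) but 53.6% of the WT mean remained. Whether the probe lies in the altered part of the gene is not given in the sources used here, and the groups are called by their labels. Knockout arrays 1 and 2 stood apart, since all 7 lung markers were detected there, against 3 on each WT array and 5 on knockout array 3. The summed lung intensity was 634 to 730 on the WT arrays, 684 on knockout array 3, 8521 on knockout array 1 and 22079 on knockout array 2. On knockout array 3 the lung markers did not all lie on the same side of WT. Sftpc, the surfactant protein C gene, had 66.4 (at most 10.7 in WT). Scgb1a1, a gene of airway club cells, had 42.9 (at most 8.1 in WT), and Ager had 105.3 by its brighter probe (at most 84.7 in WT). Sftpd was below WT at 62.4 (136.1 to 174.5 in WT). The brightest Napsa probe was in the WT range at 404.3 (404 to 483.7 in WT), and Sftpa1 and Sftpb were not detected there. The sex chromosome markers also differed between arrays: the brightest Xist probe by WT mean had 1047 on WT array 1 and 1799 and 1643 on knockout arrays 1 and 2, and at most 13 on the other 3 arrays. The Y-linked Eif2s3y was detected on all 6 arrays, at 619 to 1085 by its brighter probe. Other marker sums lay apart too (WT against knockout). Erythroid (57738 to 58343 against 60503 to 64782) and endothelial sums (4863 to 5803 against 6640 to 6785) were higher in the knockout. Only 1 of 5 tested erythroid and 1 of 6 tested endothelial markers were called higher, so these sums do not show that each marker rose. Exocrine pancreas sums were higher too (9869 to 11062 against 13287 to 14356). Most of this sum was Amy2a5, at 9438.5 to 10736.1 in WT and 11765.6 to 12858.1 in the knockout. Of the pancreas markers, 1 of 4 tested was called higher, and Cpa1, Ctrb1 and Prss2 were not detected on any array. The pancreas marker Reg1 had 806, 2135 and 51.6 on knockout arrays 1, 2 and 3 (at most 13.8 in WT). Neutrophil (58435 to 63048 against 54864 to 57059) and B lymphoid sums (1704 to 1913 against 1335 to 1550) were lower. In tissue RNA, fewer cells of a type and less RNA per cell cannot be told apart. Without both knockout arrays 1 and 2, 7 of the 24 members had an unadjusted p under 0.05 in limma (18.6% of all genes did) and 0 passed after adjustment (2.02% of all genes did). The 6 called genes then had adjusted p-values of 0.123 to 0.311 and kept their direction, with the lone knockout array assumed to vary like the WT arrays.

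Because the paralogs Serpina1a to Serpina1e lie side by side and encode closely related alpha-1 antitrypsins, and include the brightest members, their upstream sequences are shown first. Each line holds 166 bases upstream of the annotated start, on the minus strand of the RefSeq assembly GRCm38.p6 and read 5′ to 3′, aligned on the letters GTTAAT that all 5 share. Capitals mark matches, on either strand, to GTTAAT (the core of an HNF1 site, bound by a hepatocyte factor) and to TTGCNNAA (a C/EBP site).
Serpina1a: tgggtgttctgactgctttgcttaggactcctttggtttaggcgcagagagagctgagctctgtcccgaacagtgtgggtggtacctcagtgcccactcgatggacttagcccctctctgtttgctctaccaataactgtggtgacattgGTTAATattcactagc
Serpina1b: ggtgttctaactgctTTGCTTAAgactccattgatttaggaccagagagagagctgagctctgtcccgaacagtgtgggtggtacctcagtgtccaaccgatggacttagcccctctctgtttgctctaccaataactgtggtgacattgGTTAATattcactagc
Serpina1c: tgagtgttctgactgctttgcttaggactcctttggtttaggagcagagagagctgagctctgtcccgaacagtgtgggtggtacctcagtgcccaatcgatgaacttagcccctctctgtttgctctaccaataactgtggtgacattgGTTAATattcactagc
Serpina1d: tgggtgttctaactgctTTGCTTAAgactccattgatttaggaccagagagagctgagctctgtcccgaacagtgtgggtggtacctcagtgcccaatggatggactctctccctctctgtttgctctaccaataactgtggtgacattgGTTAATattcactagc
Serpina1e: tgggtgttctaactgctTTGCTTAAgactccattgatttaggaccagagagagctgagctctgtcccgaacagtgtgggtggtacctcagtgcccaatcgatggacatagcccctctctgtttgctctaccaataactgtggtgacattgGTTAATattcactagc
The windows lie at chr12:103863625-103863790, chr12:103738200-103738365, chr12:103904962-103905127, chr12:103773634-103773799 and chr12:103956960-103957125 for Serpina1a, Serpina1b, Serpina1c, Serpina1d and Serpina1e in that order. The 10 pairs of windows were 92.3% to 97.6% identical, the closest pair being Serpina1a and Serpina1c. TTGCNNAA was found in Serpina1b, Serpina1d and Serpina1e, whereas the windows of Serpina1a and Serpina1c did not hold these letters. Of all 32851 upstream windows of 250 bases in the RefSeq table, 6.43% held GTTAAT and 9.56% held TTGCNNAA. A match is a description of letters and shows no binding.

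Of the 5 paralogs, Serpina1c fell by its tested probe and the others did not pass by theirs. Serpina1c had intensities of 16161, 16041 and 14691 on the WT arrays and 11314, 10706 and 12458 on the knockout arrays. The groups did not overlap, and the knockout mean was 73.5% of WT. Serpina1c fell by 0.44 ± 0.095 on the log2 scale (adjusted p = 0.0201), a call that ended when WT array 1, WT array 2, knockout array 1 or knockout array 2 was left out (the highest adjusted p was 0.08). It also ended with a covariate for the sex chromosome markers (0.0721, at a log2 fold change of -0.41). With 1 for the lung markers it ended too (0.257, at -0.31). The lung markers were high on knockout arrays 1 and 2 and on no WT array, so this covariate cannot be fully separated from the group label. Serpina1a was measured by 2 probes. The brighter, which represents the gene, had 10237, 9268 and 7783 in WT and 7047, 5874 and 7047 in the knockout. Its groups did not overlap either, at -0.45 ± 0.13 (adjusted p = 0.0543). The dimmer probe of Serpina1a had 8551, 7881 and 7253 in WT against 5230, 3944 and 5271 in the knockout, and when each of 18429 kept probes was tested on its own it had -0.72 and an adjusted p of 0.011 (16.8% of those probes were called).

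Serpina1e had 22130, 22469 and 22469 in WT and 19195, 14132 and 20256 in the knockout, where knockout array 2 lay far below the other knockout arrays. Its groups did not overlap, and its fold change was -0.34 ± 0.14 (adjusted p = 0.134). Serpina1d had 21078, 21515 and 21078 in WT and 20377, 19916 and 20620 in the knockout (-0.064 ± 0.078, adjusted p = 0.606). These groups did not overlap either, with the knockout mean at 95.7% of WT. For Serpina1b all 3 probes lay within -0.021 to 0.059, and the tested probe had 25243, 22594 and 24236 in WT against 25243, 24847 and 24236 in the knockout (0.046 ± 0.085, adjusted p = 0.744). These 3 genes were among the brightest on the array: 8 probes had a higher mean than the tested probe of Serpina1b, 29 a higher mean than that of Serpina1d and 36 a higher mean than that of Serpina1e, and the highest intensity of any array was 28405. Probes of such close paralogs may also bind each other's transcripts, so how the signal divides among the 5 genes is uncertain. Whether the paralogs moved differently from each other was not tested. The remaining member of this group, Serpina1f, was not detected on any array.

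**Figure D2:**
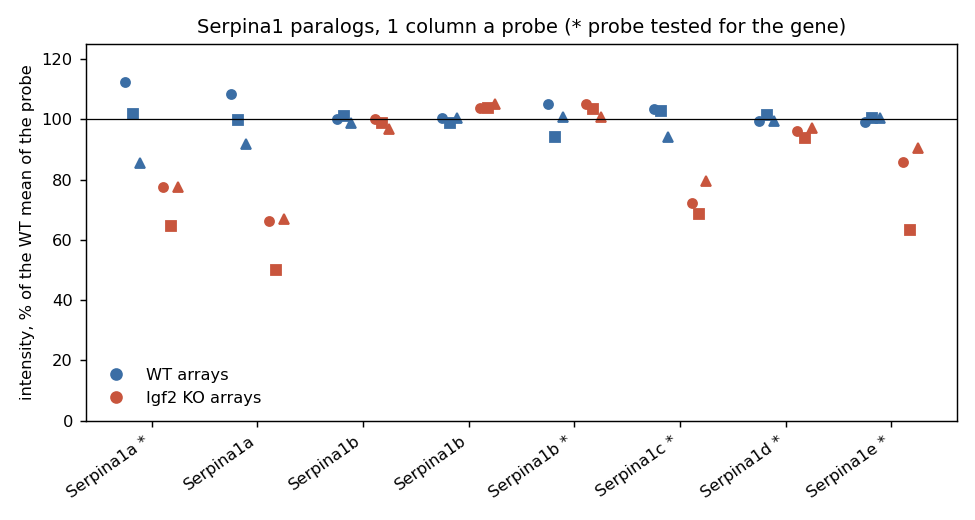
Intensity of each kept probe of Serpina1a to Serpina1e as a percent of its own WT mean (y axis, linear from 0), 1 column for each probe, with the 3 WT arrays in blue and the 3 knockout arrays in red (circle, square and triangle for arrays 1, 2 and 3). The probes of Serpina1a, Serpina1c, Serpina1d and Serpina1e have all knockout arrays below all WT arrays, while the Serpina1b and Serpina1d columns stay close to 100%.

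A pair of neighbours on chromosome 12 fell. Serpina4-ps1 is a transcribed pseudogene in the RefSeq table, and Serpina5 encodes protein C inhibitor, which acts on activated protein C and other proteases of clotting. No other gene of the RefSeq table starts between them in chromosome order. Serpina4-ps1 had intensities of 73.5, 43.5 and 93.3 in WT and 16.2, 9.3 and 23.2 in the knockout, where it was above background on 2 of 3 arrays. The groups did not overlap. Serpina4-ps1 fell by 1.35 ± 0.23 on the log2 scale (adjusted p = 0.0081), and its call held without any 1 array (adjusted p up to 0.038). With the lung covariate the log2 fold change was -1.04 and the call ended (0.12). The size depends on the handling of dim signal, at -1.88 without background modelling and -0.82 with an offset of 50.

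Serpina5 had 200, 138 and 274 in WT and 82.6, 93.1 and 77.6 in the knockout, so that the knockout arrays lay close together and below every WT array. Serpina5 fell by 1.09 ± 0.21 on the log2 scale (adjusted p = 0.0142). Leaving out WT array 1 or knockout array 1 ended its call, at adjusted p-values of 0.0554 and 0.0585. The lung covariate ended it too (0.0858), with the log2 fold change at -1.21. A further Serpina5 probe was not detected on any array. Serpina12, which encodes the adipokine vaspin and is the nearest member on the other side of Serpina4-ps1, was above background on 2 WT arrays and on no knockout array. Its brighter probe had 34.5, 16.3 and 10.1 in WT and 7.3, 1.0 and 12.6 in the knockout. These groups overlapped, so no fold is given, and it did not enter the test. The 250 bases upstream of Serpina5 (chr12:104100863-104101112, plus strand, GRCm38.p6) are printed because it had the largest fall of a protein-coding member, with a TTGCNNAA match in capitals.
Serpina5: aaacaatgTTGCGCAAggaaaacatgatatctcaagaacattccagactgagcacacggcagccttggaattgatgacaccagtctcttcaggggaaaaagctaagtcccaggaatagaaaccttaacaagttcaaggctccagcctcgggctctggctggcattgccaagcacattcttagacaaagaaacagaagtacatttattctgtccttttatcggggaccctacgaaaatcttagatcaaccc
They held no GTTAAT, no glucocorticoid response element and no TTCNNNGAA (a STAT site).

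**Figure D3:**
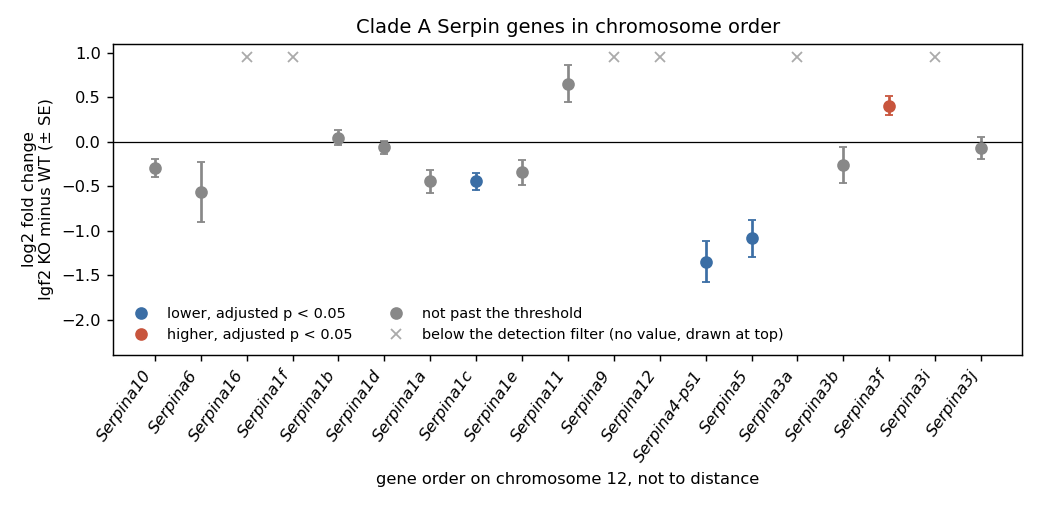
Log2 fold change (knockout minus WT, ± SE) of the clade A serpin genes on chromosome 12 in the order of their positions, evenly spaced. Grey crosses at the top mark genes below the detection filter, and the adjacent Serpina4-ps1 and Serpina5 hold the lowest values, at -1.35 and -1.09.

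Further along the same cluster, Serpina3f, a gene of the expanded mouse Serpina3 group, rose. It had 148, 152 and 131 in WT and 195, 176 and 216 in the knockout, with every knockout array above every WT array. The log2 fold change was 0.41 ± 0.10 (adjusted p = 0.0377). The call held without knockout array 2 and ended without each other single array (0.0593 to 0.115), with the sex covariate (0.0723) and with the lung covariate (0.0782). The log2 fold change was 0.45 with the sex covariate and 0.57 with the lung covariate. Serpina3 copies are close in sequence, so a share of this signal may come from another copy, and Serpina3n, which lies in the same cluster, had 0.68 ± 0.11. Serpina3b and Serpina3j were dim, at 25.3 to 58.2 and 21.2 to 34.9 over the 6 arrays, with log2 fold changes of -0.26 ± 0.20 and -0.068 ± 0.13. Serpina3a and Serpina3i were not detected on any array. The window upstream of Serpina3f (chr12:104214294-104214543, plus strand) is shown because it held more of the searched motifs than the windows printed for other genes, with 2 TTGCNNAA matches and 1 TTCNNNGAA match in capitals.
Serpina3f: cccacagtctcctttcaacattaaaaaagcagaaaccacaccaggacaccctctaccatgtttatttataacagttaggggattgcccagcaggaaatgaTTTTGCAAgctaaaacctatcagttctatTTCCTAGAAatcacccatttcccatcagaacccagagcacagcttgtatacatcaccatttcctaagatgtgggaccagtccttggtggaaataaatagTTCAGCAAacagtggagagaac
TTCNNNGAA was found in 7.02% of all upstream windows.

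Among the other inhibitors of clotting and fibrinolysis, Serpind1 fell. It encodes heparin cofactor II, which inhibits thrombin when bound to dermatan sulfate or heparin. Serpind1 had 6241, 6202 and 5524 in WT and 3953, 4691 and 3944 in the knockout, with no overlap and 70.1% of the WT mean left. Serpind1 fell by 0.51 ± 0.11 on the log2 scale (adjusted p = 0.0173). This call ended without WT array 1, WT array 2, knockout array 1 or knockout array 3 in turn (0.0502 to 0.0764). The lung covariate ended it too (0.0673), with the log2 fold change of Serpind1 at -0.64. Its upstream window held none of the 4 motifs.

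Serpinc1, the gene of antithrombin, gave different values by probe. The probe tested for the gene had 981, 1368 and 1158 in WT and 1367, 1401 and 1184 in the knockout, with overlapping groups and a log2 fold change of 0.18 ± 0.14 (adjusted p = 0.396). The dimmer probe, annotated to the same transcript, had 595, 609 and 616 in WT and 343, 367 and 360 in the knockout. These groups were far apart relative to their spread, at -0.74 ± 0.086 with an adjusted p of 0.00151 when each probe was tested on its own. With the mean of both probes Serpinc1 had -0.28 and an adjusted p of 0.0813. No direction for antithrombin can be given from these probes.

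Serpinf2, the gene of alpha-2 antiplasmin, an inhibitor of plasmin, was measured by 3 probes that were all lower in mean in the knockout. The tested probe had 14303, 15458 and 15843 in WT and 11806, 15798 and 12510 in the knockout, where array 2 lay in the WT range (-0.20 ± 0.12, adjusted p = 0.313). The other probes had -0.26 (adjusted p = 0.0934) and -0.45 (adjusted p = 0.0183). Serpina10, the gene of the protein Z-dependent inhibitor of factor Xa, had 3415, 4103 and 3948 in WT and 3057, 3186 and 3057 in the knockout (-0.30 ± 0.098, adjusted p = 0.0756). Its groups did not overlap but it did not pass. Serping1, the gene of C1 inhibitor, which restrains complement and contact proteases, had 6570 to 7271 over the 6 arrays and a log2 fold change of -0.049 ± 0.082 (adjusted p = 0.716).

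**Figure D4:**
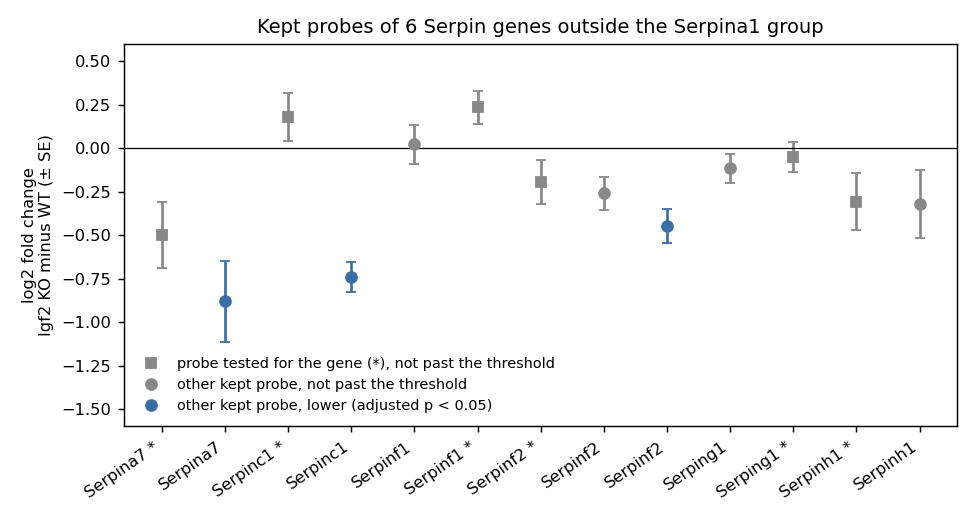
Log2 fold change (knockout minus WT, ± SE) of each kept probe of 6 serpin genes outside the Serpina1 group, squares being the probe tested for the gene and circles its other probes. The Serpinc1 probes lie at 0.18 and -0.74, the largest gap, while those of Serpinh1 lie at -0.31 and -0.32.

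Over the family, 8 genes had more than 1 kept probe. Of their 10 further probes, 8 had the direction of the tested probe, and 4 were called when tested on their own, all lower (Serpina1a, Serpina7, Serpinc1 and Serpinf2), where 9.77% of all kept probes were called lower. The groups did not overlap on 7 of the 10, against 38.4% of all kept probes.

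The hormone carriers did not pass by their tested probes. Serpina7 encodes thyroxine-binding globulin, a plasma carrier of thyroid hormone, and is X-linked. It had 1823, 1699 and 1635 in WT and 1167, 1640 and 928 in the knockout, so that knockout array 2, which held the most lung transcripts, reached the WT range (-0.50 ± 0.19, adjusted p = 0.112). The dimmer probe had 443, 335 and 339 in WT and 196, 277 and 133 in the knockout, with no overlap (-0.88 ± 0.23, adjusted p = 0.0381 on its own). Without knockout array 2 the tested probe was called (adjusted p = 0.0178), as it was with the lung covariate (0.0256). Leaving out each other single array gave no call (0.148 to 0.254), nor did the sex covariate (0.0601, at a log2 fold change of -0.68). Serpina6, the gene of corticosteroid-binding globulin, which carries glucocorticoids, had 66.5, 67.4 and 160 in WT and 48.9, 88.9 and 39.1 in the knockout (-0.57 ± 0.34, adjusted p = 0.285). These groups overlapped, and a single WT array was far above the rest.

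Serpina11, a member whose function is not well known, had 572, 489 and 909 in WT and 993, 1015 and 1015 in the knockout. The knockout arrays were nearly equal and above every WT array, but the spread in WT left it short of the threshold (0.66 ± 0.21, adjusted p = 0.0664). Without WT array 3 it was called (0.91, adjusted p = 0.00389), and without each other single array it was not (0.134 to 0.183). In this cluster Serpina9 was not detected on any array, and Serpina16 was detected on 1 WT and 1 knockout array.

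Of 26 clade B genes, which mostly protect cells from proteases of their own granules and lysosomes, 4 were tested and 21 were not detected on any array. Serpinb6b rose. It had 39.5, 39.4 and 32.0 in WT and 91.4, 138 and 53.3 in the knockout, with no overlap but a wide spread within the knockout (0.99 ± 0.26, adjusted p = 0.039). The order of its 3 knockout arrays was the order of their lung markers, whose summed intensities are 684, 8521 and 22079 on arrays 3, 1 and 2. On knockout array 3 alone Serpinb6b had a log2 fold change of 0.39. That array too had Sftpc and Scgb1a1 above WT, but Sftpd below WT. With the lung covariate Serpinb6b had 0.28 (adjusted p = 0.384). Its call was kept without knockout array 3 and lost without any other single array (0.0632 to 0.117), with no detection filter (0.0824) and with the sex covariate (0.0949). The part of lung RNA in this difference was not tested beyond these values.

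Serpinb6a, a widely expressed inhibitor of cathepsin G and related proteases, had 958, 920 and 835 in WT and 1099, 1158 and 985 in the knockout (0.25 ± 0.10, adjusted p = 0.124). Serpinb1a, an inhibitor of neutrophil elastase, cathepsin G and proteinase 3, had 520, 462 and 441 in WT and 418, 372 and 325 in the knockout (-0.34 ± 0.12, adjusted p = 0.0842). Neither gene's groups overlapped. The 8 markers of neutrophils and their precursors were each detected on every array. Their summed intensities were 58435 to 63048 in WT and 54864 to 57059 in the knockout, without overlap, and 0 of 8 were called. Ctsg, the gene of cathepsin G and not among these 8, fell (-0.36 ± 0.090, adjusted p = 0.0338). The part of neutrophils in the Serpinb1a value was not tested. Serpinb2, the gene of plasminogen activator inhibitor 2, was dim and variable at 7.9 to 48.6 over the 6 arrays (-0.016 ± 0.29, adjusted p = 0.976). Of Serpinb3c, 1 probe was above background on 2 knockout arrays and on no WT array, at 5.7 to 12.8 in WT and 10.9 to 18.1 in the knockout, too dim for a fold. The tested clade B genes had a median of 0.12 and the 14 tested clade A genes a median of -0.32. These are descriptions of the lists.

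Of the remaining members, Serpinf1, the gene of pigment epithelium-derived factor, a secreted serpin that does not inhibit proteases, was high in both groups. It had 10609, 10029 and 10798 in WT and 11936, 13386 and 11766 in the knockout, without overlap (0.24 ± 0.091, adjusted p = 0.114). A further, dim probe had 0.023. Serpinh1, the gene of HSP47, a chaperone of procollagen in the endoplasmic reticulum, had 1038, 932 and 1061 in WT and 750, 1055 and 674 in the knockout (-0.31 ± 0.16, adjusted p = 0.23). Here too knockout array 2 lay in the WT range, and without it Serpinh1 was called (adjusted p = 0.0355). Leaving out each other single array gave no call (0.248 to 0.521), nor did the lung covariate (0.0933). The mesenchymal and stellate markers, 8 of 8 tested and 0 called, had sums of 12031 to 13483 in WT and 13458 to 13862 in the knockout. Serpine3, Serpini1 and Serpini2 were not detected on any array. In all, 28 of the 55 members were not detected on any array, and 31 did not enter the test.

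**Figure D5:**
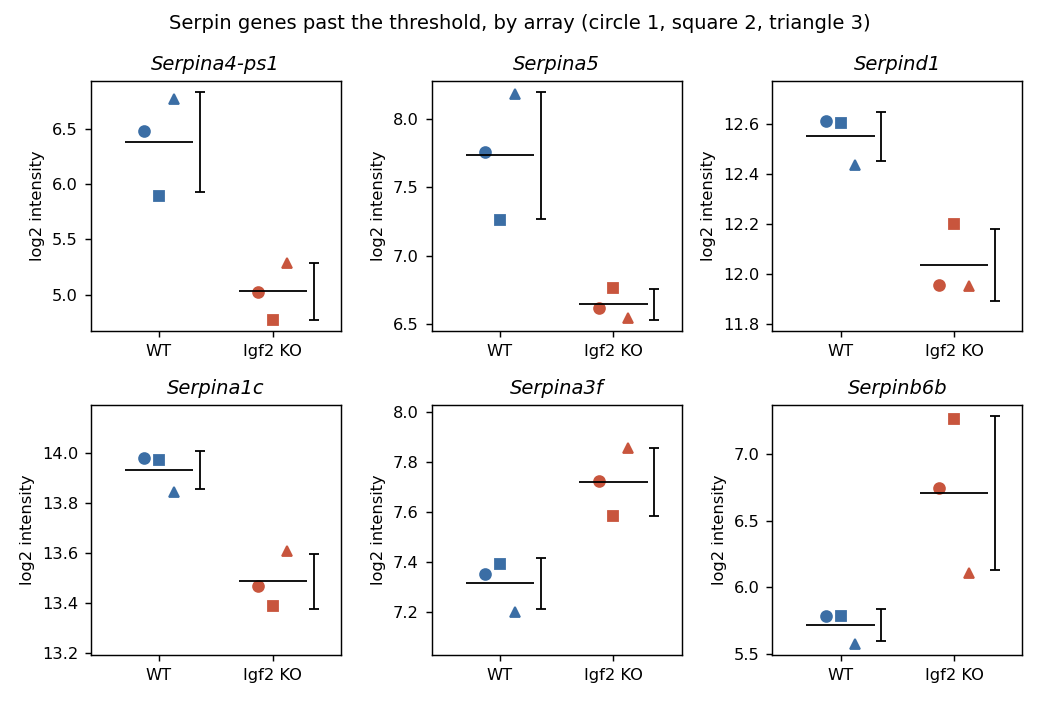
Log2 intensity (y axis, each panel on its own scale) of the 6 serpin genes past the threshold on the 3 WT and 3 knockout arrays, with the group mean as a line and ± SD (n = 3) beside it. No panel has overlapping groups, and Serpinb6b has the widest spread among knockout arrays, from 6.11 to 7.26.

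Genes that work with the serpins were read from 6 lists, described by counts and medians, to be read against the 16.7% of all genes called and the median of 0.022. Of 27 tested proteases known as serpin targets, 2 rose and 5 fell, with a median of -0.065. With 1 array left out the counts ran from 1 to 3 higher and 1 to 6 lower, being 1 and 1 without WT array 1 or without knockout array 1, and with the lung covariate they were 1 and 1. Proc, the gene of protein C, whose activated form Serpina5 inhibits, fell (-0.36 ± 0.083, adjusted p = 0.0268), as did F11, the gene of factor XI, another target of Serpina5 (-0.44 ± 0.090, adjusted p = 0.0166). F2, the gene of prothrombin, whose active form Serpind1 and Serpinc1 inhibit, had 0.030 ± 0.094 (adjusted p = 0.853). Elane, neutrophil elastase, the target of alpha-1 antitrypsin, had -0.25 ± 0.11 (adjusted p = 0.169). Klkb1, plasma prekallikrein and a target of Serping1, had the smallest p of those that fell (-0.88 ± 0.14, adjusted p = 0.00666). Plat, tissue plasminogen activator, which Serpina5 also inhibits, rose (0.93 ± 0.24, adjusted p = 0.0358). Its log2 intensities on knockout arrays 1, 2 and 3 were 6.23, 6.71 and 5.77, in the order of their lung markers, and with the lung covariate it had 0.37 (adjusted p = 0.394). Ctsl, the lysosomal protease cathepsin L, also rose (1.70 ± 0.21, adjusted p = 0.0021), and had 2.04 with the lung covariate (adjusted p = 0.0106). Its log2 intensities on knockout arrays 1, 2 and 3 were 10.26, 10.05 and 10.61, not in the order of the lung markers. Of 23 tested protease inhibitors outside the serpin family, 2 rose (Fetub, 0.65, and Timp3, 0.89) and 0 fell by limma, with a median of 0.020. Timp3, a matrix metalloproteinase inhibitor, had 9.67, 10.21 and 9.35 on knockout arrays 1, 2 and 3 (log2 intensity), again in the order of the lung markers. With the lung covariate Timp3 had 0.40 (adjusted p = 0.313) and Fetub 0.72 (adjusted p = 0.0566), and the list had 0 higher and 1 lower.

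Of 14 tested partners and receptors, 1 rose and 3 fell, with a median of 0.18. Proz, the gene of protein Z, the cofactor of Serpina10, fell by 0.70 ± 0.097 on the log2 scale (adjusted p = 0.0036), and Plaur, the urokinase receptor, rose (0.53 ± 0.12, adjusted p = 0.0262). Plaur had log2 intensities of 6.52, 6.80 and 6.49 on knockout arrays 1, 2 and 3, with arrays 1 and 3 nearly equal, and at most 6.24 in WT. With the lung covariate Plaur had 0.36 (adjusted p = 0.29). The list then had 0 higher and 1 lower, and 0 and 0 without knockout arrays 1 and 2. Of 11 tested genes of hormone carriers and handling, 2 rose and 3 fell, with a median of -0.18. With the lung covariate 0 were higher and 3 lower. Shbg, the gene of the sex hormone-binding globulin, fell by 1.61 ± 0.13 (adjusted p = 0.000481). Agt, angiotensinogen, which has the serpin fold but another symbol, rose (0.67 ± 0.12, adjusted p = 0.0082). Of 11 tested hepatocyte transcription factors, 1 rose and 5 fell, with a median of -0.36. Cebpa, which encodes a factor that binds C/EBP sites and is named here after its value was seen, fell by 1.18 ± 0.20 (adjusted p = 0.00791), Foxa3 fell by 0.51 ± 0.083 (adjusted p = 0.00704), and Nr5a2 rose (0.68 ± 0.15, adjusted p = 0.0214). With 1 array left out 0 to 1 of them were called higher and 2 to 5 lower, with the lung covariate 0 and 1, and without knockout arrays 1 and 2 they were 0 and 0. Of 22 tested genes of collagen and its maturation, the clients and partners of Serpinh1, 1 rose (P4ha2, 0.58) and 1 fell (Bmp1, -0.47), with a median of 0.023. With the lung covariate both counts were 0.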

How the data were processed

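Illumina arrays were hybridised with biotinylated cRNA made from total RNA of newborn livers, per the labels' protocols. The authors deposited probe intensity values in 2 tables with equal values, 1 of them with detection p-values, which per the file headers belong to each probe and array. Although titled as not normalized, the deposited intensity values are background-subtracted and nearly equal in distribution between arrays (25.0% to 25.1% below 0). Which software made them is not given in the sources used here. Both tables were joined by their 6 intensities, and 14 of the 80 serpin probes had another ID of the same gene in the other table.

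limma (version 3.58.1, R 4.3.3) was used as follows: neqc with an offset of 16, a filter that kept probes above background (detection p under 0.05) on 3 or more arrays, 1 probe a gene (the brightest), lmFit and eBayes over 11346 genes. The offset makes fold changes of dim genes smaller. A gene above background in 1 group only could pass the filter. Arrays were grouped by the title in the labels, and the number of arrays limits the precision.  There were 17 alternatives. The members, lists and motifs were chosen with earlier results of these data known. Any tested member could be named, and of each list the gene with the smallest p in each direction plus targets and partners of the called members. Symbols come from the platform annotation, and sequences from the RefSeq table of GRCm38.p6 (48 of 55 members have a window there). Coordinates are given for these windows alone, in that assembly, since the files name no build.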

Additional observations from a re-analysis of the deposited data

How the results depend on the processing

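The 6 calls rest on few arrays. All 6 kept their direction under all 17 alternatives, and 0 kept its call under every one. Of all genes, 1897 were called, against 846 to 1881 with 1 array left out, 1156 with the sex covariate, 523 with the lung covariate, 229 without knockout arrays 1 and 2, and 3088 probes when each was tested on its own. With 1 array left out, 0 to 1 serpin genes were called higher and 1 to 5 lower, with a median of -0.26 to -0.12. The 2 higher calls became 1 with no filter and 1 with the replicate block (arrays of the same number as a block), and 0 with the sex covariate, 0 with the lung covariate and 0 without knockout arrays 1 and 2. The block took the calls of Serpina1c (adjusted p = 0.0575) and Serpina3f (0.0855). The deviations of same-numbered arrays from their group means had correlations of -0.0044 to 0.028, and those of other pairs -0.11 to 0.11. With 3 arrays in each group these values cannot show whether same-numbered arrays were paired, which the labels do not state. The 4 lower calls became 8 with every probe, 1 with the lung covariate and 0 without knockout arrays 1 and 2. The count of 8 takes a gene as called by any of its probes, and the tested probes alone gave 4. Leaving aside further probes tested on their own, calls were gained by Serpina1a (5 settings), Serpina11 (2), Serpina7 (2), Serpina10, Serpinb1a, Serpinf1 and Serpinh1 (1 each). Signs turned for uncalled genes: Serpinc1 (-0.28 with the mean of probes), Serpina3j (0.012 with the sex covariate, 0.16 with the lung covariate, 0.18 without knockout arrays 1 and 2, and -0.19 to 0.033 with 1 array left out) and Serpinb2 (-0.31 to 0.34 with 1 array left out, above 0 without WT array 2 or knockout array 3). Medians of the lists took other values for target proteases (-0.16 with the mean of probes, -0.25 with every probe), hormone carriers (-0.11 with every probe, -0.12 with an offset of 50), transcription factors (-0.066 with every probe), partners (0.078 with the lung covariate, 0.092 without knockout arrays 1 and 2) and collagen (-0.059 without both). With 1 array left out they ran from -0.13 to -0.027 for target proteases, 0.0057 to 0.073 for other inhibitors, 0.079 to 0.20 for partners, -0.24 to -0.089 for hormone carriers, -0.42 to -0.23 for transcription factors and -0.030 to 0.099 for collagen. The causes were not tested.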
